A study of Mus musculus with 12 samples.

Results

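The 7 genes described here encode channels that carry current between heart cells or start the beat: the connexins Gja1, Gjc1, Gja4, Gja5 and Gja3, and the pacemaker channel subunits Hcn2 and Hcn4. They were chosen by name among the 39210 genes of the table, and all 7 passed the filter on low counts, which left 13960 genes. Expression was measured by strand-specific mRNA sequencing of frozen ventricular tissue from C57BL/6 mice, with 3 libraries in each of 4 groups. Hypoxic males and hypoxic females lived in a chamber whose oxygen went down by 1% a day for 14 days to 7%, and then stayed there for 2 weeks. Normoxic males and normoxic females breathed room air, with 20.9% oxygen, for 4 weeks. The mice of all groups carried no further allele or agent according to the labels, which give neither an age nor whether the left and right ventricle were kept apart. Nothing in the labels says whether the 3 libraries of a group are 3 different mice, so the p-values given reflect variation among libraries that could be technical.

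Connexins are membrane proteins that assemble into gap junctions, channels that join the interiors of neighbouring cells and let the electrical impulse pass from one heart muscle cell to the next. They sit mainly at the intercalated disc, the contact between the ends of heart muscle cells, and their working can be changed by phosphorylation and by how fast they are delivered and removed. HCN channels open when the membrane becomes more negative, pass the inward pacemaker current and bind cyclic AMP. In the heart they are best known from the sinus node and the conduction fibres, and ventricular muscle holds less of them.

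Library totals ran from 14915769 to 19397811 estimated counts. Libraries of a group all differed by more than sampling noise, so each counted as 1 sample. Heart muscle RNA was present in all groups. The summed level of 9 ventricular muscle markers was 44869 to 56720 CPM (counts scaled to library sizes corrected by TMM factors) in hypoxic males and 58145 to 64739 CPM in normoxic males. It was 46197 to 66865 CPM in hypoxic females and 58427 to 66988 CPM in normoxic females. No library of atrial tissue was there for comparison, so these sums cannot tell the chambers apart. RNA of genes used as markers of other cells was present too. Whether the atrial markers came from atrial cells or from ventricular muscle was not tested. The 8 atrial muscle markers summed to 582, 1797 and 1019 CPM in the 3 hypoxic male libraries. They summed to 230, 151 and 223 CPM in the normoxic male ones. The sum was 274, 571 and 1154 CPM in hypoxic females and 294, 201 and 317 CPM in normoxic females. Of the 8 atrial markers 6 were tested. In the averaged hypoxia contrast 5 of them were higher at an adjusted p under 0.05, against 15.0% of all genes tested. Kcnj3, the other tested marker, had a log2 fold change of -0.61 and did not pass. In males 4 of the 6 were higher, against 8.47% of all genes, and in females 0, against 3.97%. Because the tissue is a mixture, fewer cells of a type and less RNA per cell cannot be told apart.

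Gjc1 was higher and Gja3 lower in hypoxic ventricles. Averaged over the sexes, Gjc1 was 1.41-fold higher in hypoxia and Gja3 was at 0.634 times its normoxic level. Gja5 was lower in hypoxic than in normoxic females, at 0.572 times their level, and showed no called change in males. The remaining genes, Gja1, Gja4, Hcn2 and Hcn4, passed no test. By edgeR's quasi-likelihood test with Benjamini-Hochberg adjustment over all genes, 2 of the 7 genes were called at an adjusted p under 0.05 in the averaged contrast, where 27.9% of all genes tested were called (15.0% higher and 12.9% lower), so the share of the 7 was close to that of all genes. In females 2 of the 7 were called, against 5.99% of all genes (3.97% higher and 2.02% lower). In males 0 of the 7 were called, against 15.6% of all genes (8.47% higher and 7.11% lower). At an unadjusted p under 0.05, 2 of the 7 passed in males, a threshold at which the share of all genes was not counted. DESeq2 and limma voom each called 0 there as well.

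**Figure D1:**
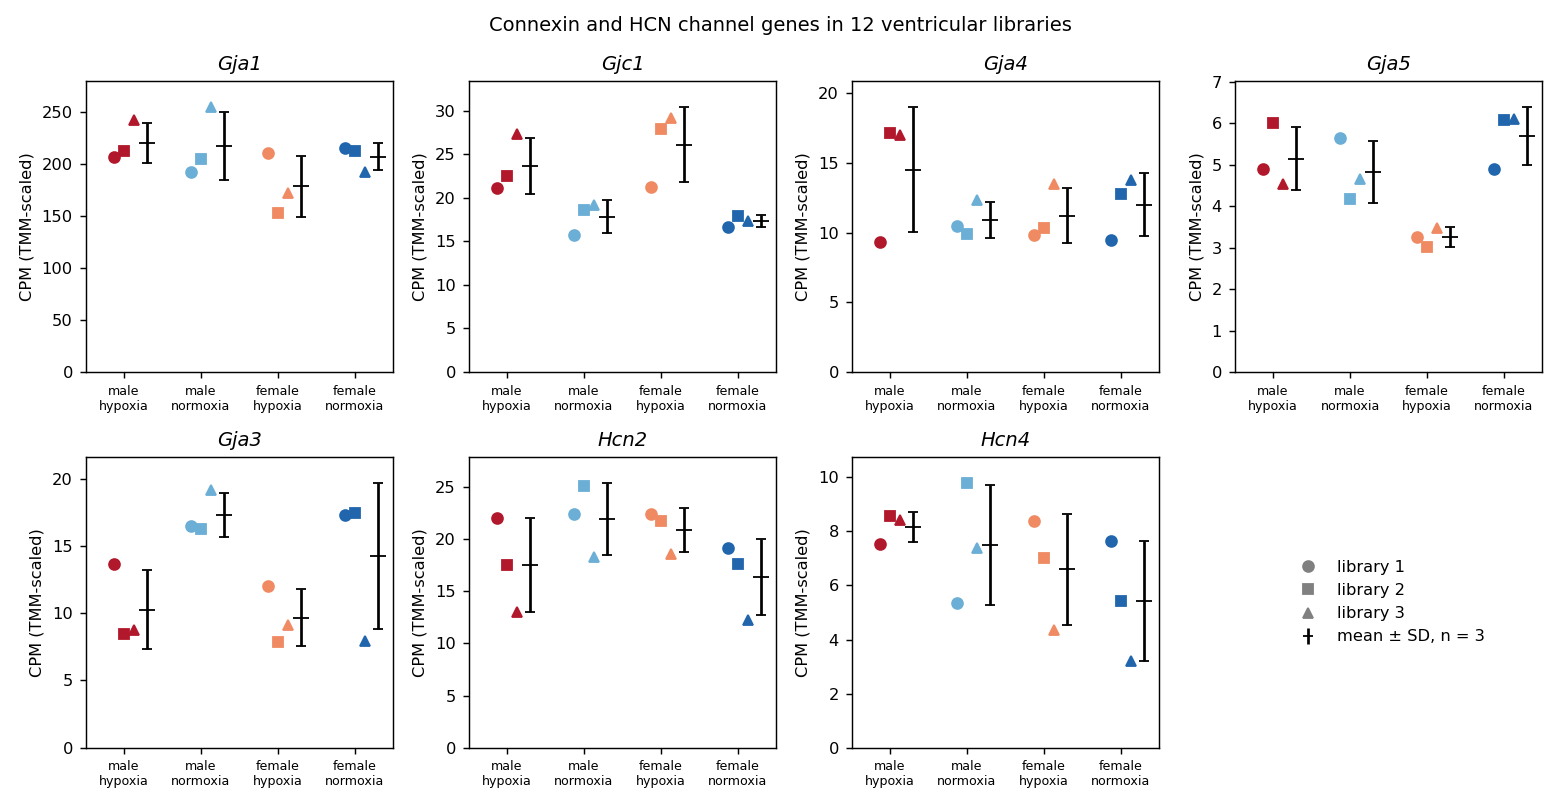
Level of each gene in every library, in CPM scaled by TMM factors, with 1 point per library and the mean ± SD of 3 libraries beside each group. The hypoxia groups stand left of the normoxia groups of the same sex. Gjc1 is above its normoxic libraries in both sexes, Gja3 is below in males and Gja5 is below in females.

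Gja1 (ENSMUSG00000050953) encodes the main connexin of working ventricular muscle. It was by far the most abundant of the 7 per transcript length, with a median of 44.8 TPM (abundance scaled to transcript length and library) over the 12 libraries and a range of 35.5 to 61.1 TPM. Its share of the summed TPM of 20 connexin genes was 64.9% to 74.4%. The level in CPM was 207, 213 and 243 in hypoxic males and 192, 205 and 255 in normoxic males. In hypoxic females it was 211, 153 and 173 CPM, against 216, 213 and 192 CPM in normoxic females. The groups overlapped in both sexes. The log2 fold change of hypoxia over normoxia was -0.09 ± 0.10 (SE, adjusted p = 0.505) averaged over the sexes, with a 95% interval of -0.31 to 0.12. In females alone the lower values gave -0.21 ± 0.14 (SE, adjusted p = 0.375).

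On the TPM scale the same gene read differently. There Gja1 averaged 55.9 ± 8.09 TPM in hypoxic males and 41.2 ± 5.83 TPM in normoxic males (SD, n = 3 each), and 42.5 ± 5.32 TPM in hypoxic females against 42.7 ± 3.64 TPM in normoxic females. The averaged log2 fold change of log2(TPM + 0.1) was 0.21 (adjusted p = 0.142 by limma), while the median over all genes tested was itself 0.29 on that scale. Relative to this shift Gja1 lay at -0.07.

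The stretch of genome before and at the start of Gja1 is shown because it is the gene with the highest level, and those of Gja3 and Gja5 because they were called lower. Each runs from 250 bases before to 50 bases after a transcription start annotated by RefSeq on GRCm38.p6, 5′ to 3′ on the gene's strand. They are chr10:56377050-56377349 on the plus strand for Gja1, chr14:57057981-57058280 and chr14:57057674-57057973 on the minus strand for the 2 starts of Gja3, and chr3:97032152-97032451 on the plus strand for Gja5. Capitals mark matches, on either strand, to the motifs searched.
Gja1: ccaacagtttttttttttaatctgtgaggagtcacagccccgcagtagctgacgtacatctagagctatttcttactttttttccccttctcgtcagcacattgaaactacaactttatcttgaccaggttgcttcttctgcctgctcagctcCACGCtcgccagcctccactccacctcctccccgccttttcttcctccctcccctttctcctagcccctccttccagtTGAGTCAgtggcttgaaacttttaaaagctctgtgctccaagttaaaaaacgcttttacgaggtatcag
Gja3, start 1: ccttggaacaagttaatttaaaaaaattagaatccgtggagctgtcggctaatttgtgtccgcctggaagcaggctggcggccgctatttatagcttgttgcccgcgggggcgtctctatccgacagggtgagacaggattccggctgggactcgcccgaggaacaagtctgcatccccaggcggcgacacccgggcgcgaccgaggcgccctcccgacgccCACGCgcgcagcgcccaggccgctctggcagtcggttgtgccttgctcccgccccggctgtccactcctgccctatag
Gja3, start 2: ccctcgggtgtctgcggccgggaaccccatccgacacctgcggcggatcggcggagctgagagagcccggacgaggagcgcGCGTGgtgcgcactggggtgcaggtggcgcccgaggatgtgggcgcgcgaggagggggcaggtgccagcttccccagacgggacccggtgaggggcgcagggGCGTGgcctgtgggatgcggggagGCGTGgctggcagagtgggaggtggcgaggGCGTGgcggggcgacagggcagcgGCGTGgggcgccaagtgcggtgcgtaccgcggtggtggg
Gja5: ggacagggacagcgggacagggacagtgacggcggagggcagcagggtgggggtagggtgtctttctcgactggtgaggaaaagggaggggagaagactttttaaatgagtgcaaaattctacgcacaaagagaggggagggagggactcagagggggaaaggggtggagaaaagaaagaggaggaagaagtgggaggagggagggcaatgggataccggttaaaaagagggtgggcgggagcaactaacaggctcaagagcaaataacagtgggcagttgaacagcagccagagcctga

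Motifs were searched on both strands in the 32851 promoters of the same length, and 6 of the 7 genes had an entry, all but Gjc1. The core of the hypoxia response element was searched as ACGTG and as GCGTG. No promoter of the 6 genes held ACGTG, which 19.6% of all promoters held. GCGTG was found in 32.4% of all promoters, once in Gja1, once at the first start of Gja3 and 5 times at its second. That second window has a GC content of 76.0%, against a median of 52.7% over all promoters. The AP-1 element TGANTCA, present in 7.81% of promoters, matched once in Gja1. The T-box element TCACACC (3.98% of promoters) and the NKX2-5 element TNAAGTG (11.5%) matched in none of the 6 genes. Gja4, Gja5, Hcn2 and Hcn4 matched none of the 5 patterns. A match is a description of letters in the window, and nothing was measured at these sequences.

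Gjc1 (ENSMUSG00000034520) encodes a connexin of the embryonic heart, the nodes and the conduction system that vascular smooth muscle also makes in mice. Its level was 21.2, 22.5 and 27.3 CPM in hypoxic males and 15.7, 18.6 and 19.2 CPM in normoxic males. In hypoxic females it was 21.2, 27.9 and 29.1 CPM, against 16.7, 17.9 and 17.4 CPM in normoxic females. Every hypoxic library was above every normoxic library of its own sex, and also above those of the other sex. Of all genes tested, 21.5% had hypoxic males above normoxic males without overlap, and 13.2% had hypoxic females above normoxic females. The averaged log2 fold change was 0.50 ± 0.10 (SE, adjusted p = 0.0044), with a 95% interval of 0.28 to 0.72. It was 0.59 ± 0.14 in females (adjusted p = 0.0353) and 0.41 ± 0.14 in males (adjusted p = 0.0695). The female effect minus the male effect was 0.18 ± 0.20 (adjusted p = 0.889), a sign that turned to -0.40 with transcript lengths in the fit.

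The averaged call for Gjc1 held with each of the 12 libraries left out in turn, with adjusted p-values up to 0.0148. Without hypoxic male libraries 2 and 3 together it was not called, at 0.42 (adjusted p = 0.0554). The call in females was lost in 8 of the 12 fits that left out 1 library, with adjusted p-values from 0.0513 to 0.161, and these were all but the fits without hypoxic male 1 or 3, normoxic male 1 or hypoxic female 1. The averaged call was also lost when the deposited transcript lengths entered the fit as an offset, where the log2 fold change was 0.26 (adjusted p = 0.332). In females the same offset gave 0.0588 (adjusted p = 0.926), and with only the female libraries in the fit the female call was also lost (adjusted p = 0.106). Without hypoxic male libraries 2 and 3 together the female call was lost too, at a value of 0.59. The deposited average effective length of Gjc1, which weights its transcripts by their estimated shares, was 1184, 1190 and 1356 bases in hypoxic males and 1684, 1194 and 1164 bases in normoxic males. It was 1701, 1739 and 1723 bases in hypoxic females and 1207, 919 and 1706 bases in normoxic females. The longest values thus included all 3 hypoxic female libraries, and hypoxic and normoxic lengths overlapped in males. Per length, Gjc1 stood at 11.4, 15.3 and 14.0 TPM in hypoxic males and 4.86, 8.76 and 8.60 TPM in normoxic males, without overlap. Hypoxic females had 7.76, 10.8 and 12.3 TPM, and normoxic females 8.04, 11.6 and 5.75 TPM, with overlap. The sex with the larger hypoxic difference was therefore female in CPM and male in TPM: on log2(TPM + 0.1) the log2 fold change was 0.31 in females (adjusted p = 0.584) and 0.90 in males (adjusted p = 0.0414), by limma, where the median over all genes was 0.19 in females and 0.39 in males.

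**Figure D2:**
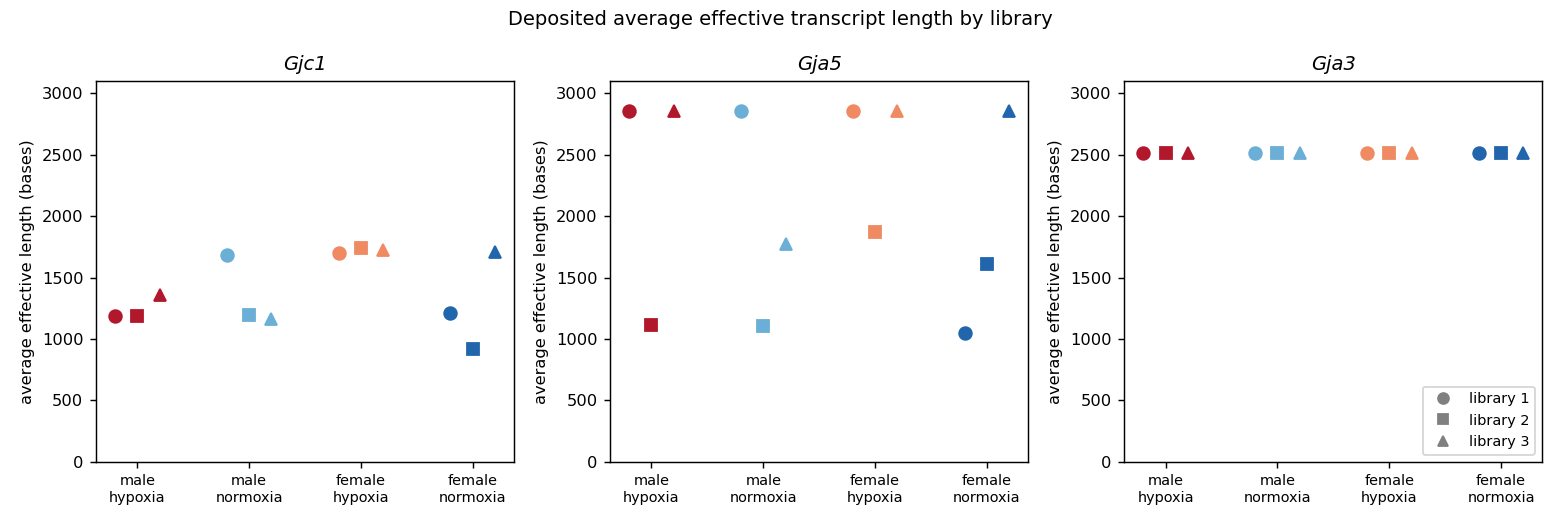
Deposited average effective transcript length in bases for Gjc1, Gja5 and Gja3, with 1 point per library. Gjc1 ran between 919 and 1739 bases and Gja5 between 1047 and 2859 bases, whereas Gja3 stood at 2516 bases in all 12 libraries.

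The levels of endothelial genes are given beside those of Gjc1. The sum of 8 endothelial markers was 1123 to 1414 CPM in hypoxic males and 789 to 977 CPM in normoxic males, and 1169 to 1513 CPM in hypoxic females against 911 to 1140 CPM in normoxic females. In the averaged contrast 6 of these 8 were higher and 0 lower, against 15.0% and 12.9% of all genes tested. In males 2 of the 8 were higher, against 8.47% of all genes, and in females 1, against 3.97%. Log2 fold changes of the 8 ran from -0.40 to 1.09 in males and from -0.30 to 0.78 in females. The 2 genes with the closest pattern to Gjc1 over the 12 libraries, among 10924 searched, were the calcium pump gene Atp2b4 (Pearson r = 0.99 of log2 CPM) and the endothelial cadherin gene Cdh5 (r = 0.97), itself among those markers. These r values describe libraries that share depth and group, and no test was made of them. None of the endothelial markers was at 0 in all libraries. The sum of 6 smooth muscle markers was 346 to 497 CPM in hypoxic males and 298 to 429 CPM in normoxic males. It was 412 to 598 CPM in hypoxic females against 232 to 458 CPM in normoxic females. In the averaged contrast 2 of the 6 were higher, against 15.0% of all genes tested. The part of these cells in the Gjc1 result was not tested.

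Gja4 (ENSMUSG00000050234) and Gja5 (ENSMUSG00000057123) encode the connexins of arterial endothelium, and Gja5 is also known from atrial muscle and the ventricular conduction fibres. Gja4 was 9.33, 17.1 and 17.0 CPM in hypoxic males and 10.5, 9.89 and 12.4 CPM in normoxic males. It was 9.82, 10.3 and 13.5 CPM in hypoxic females and 9.46, 12.8 and 13.7 CPM in normoxic females. Hypoxic male libraries 2 and 3 were the highest of all 12, while hypoxic male library 1 was the lowest, so the groups overlapped in both sexes. The log2 fold change was 0.41 ± 0.23 in males (SE, adjusted p = 0.244). It was -0.10 ± 0.23 in females (adjusted p = 0.838), where log2(TPM + 0.1) gave 0.12, or -0.07 relative to its all-gene median. Without hypoxic male libraries 2 and 3 the male value was -0.22, so its sign rests on them. Those libraries also had the highest atrial marker sums among males, and the part of atrial tissue in their Gja4 level was not tested.

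Gja5 was present at a low level, with 55.0 to 126 estimated counts per library. In males it was 4.90, 6.00 and 4.54 CPM in hypoxia and 5.66, 4.19 and 4.66 CPM in normoxia, and the groups overlapped. In females it was 3.25, 3.01 and 3.48 CPM in hypoxia and 4.89, 6.08 and 6.10 CPM in normoxia. All 3 hypoxic female libraries were lower than each of the other 9. Of all genes tested, 12.7% had hypoxic females below normoxic females without overlap. The log2 fold change in females was -0.81 ± 0.18 (SE, adjusted p = 0.0315), with a 95% interval of -1.21 to -0.40, and in males it was 0.09 ± 0.18 (adjusted p = 0.771). Averaged over the sexes it was -0.36 ± 0.13 (adjusted p = 0.0594).

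Whether the sexes differed in the response of Gja5 was tested directly. The female effect minus the male effect was -0.90 ± 0.26 on the log2 scale (SE, unadjusted p = 0.0050, adjusted p = 0.638), so the difference did not pass. In that test 0 of the 7 genes were called by edgeR, against 0.00716% of all genes. At an unadjusted p under 0.05, 2 of the 7 passed, Gja5 and Hcn2, and DESeq2 and limma voom called 0. The share of all genes at an unadjusted p under 0.05 was not counted, here or for females against males below. These counts therefore cannot be set against the shares given, which are for adjusted p. Females against males in hypoxia gave -0.66 ± 0.18 for Gja5 (adjusted p = 0.265), where 0 of the 7 were called, against 0.150% of all genes, and 1 of the 7 had an unadjusted p under 0.05. Females against males in normoxia gave 0.24 ± 0.18 (adjusted p = 0.785), where 0 of the 7 were called, against 0.0716% of all genes, and 0 had an unadjusted p under 0.05. DESeq2 and limma voom called 0 of the 7 between the sexes at either oxygen level.

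The Gja5 call in females stood near the threshold. It was lost in 5 of the 12 fits that left out 1 library, namely hypoxic female 2 or 3 and normoxic female 1, 2 or 3, with adjusted p-values from 0.0513 to 0.131. It was also lost without a filter on low counts (adjusted p = 0.0661), with only the female libraries in the fit (adjusted p = 0.106) and with the replicate number as a block (adjusted p = 0.0501). The call was lost too without hypoxic male libraries 2 and 3 together, where the female value stayed at -0.81. That fit kept 1 hypoxic male library. Gja5 also had the most uneven transcript length of the 7, from 1047 to 2859 bases. The value 2859 stood in 6 libraries and equals the 3109 bases of the annotated transcript Gja5-201 in GENCODE M21 less 250. With lengths as an offset the female difference was larger and less certain, at -1.42 (adjusted p = 0.132). In TPM the hypoxic female libraries were at 0.709, 1.08 and 0.889, against 2.71, 2.25 and 1.21 TPM in the normoxic female ones, without overlap. The call was nevertheless lost on log2(TPM + 0.1), at -1.06 (adjusted p = 0.230 by limma). It was lost on log2(TPM + 1) as well, at -0.66 (adjusted p = 0.272 by limma). The gene overlaps 4 annotated genes on the opposite strand, among them the protein-coding Gpr89, and the strand setting of the quantification is not given in the sources used here, so reads of these genes may not have been separated. The other 6 genes overlap none.

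The levels of arterial endothelial markers are given beside those of Gja5. The sum of 9 such markers was 165 to 219 CPM in hypoxic females and 117 to 172 CPM in normoxic females, and 174 to 201 CPM in hypoxic males against 107 to 126 CPM in normoxic males. In the averaged contrast 6 of the 9 were higher and 0 lower, against 15.0% and 12.9% of all genes tested. In males 5 of the 9 were higher, against 8.47% of all genes, and in females 1, against 3.97%. Conduction fibre markers, a sum over 7 genes, were at 50.6 to 55.2 CPM in hypoxic females and 38.5 to 56.3 CPM in normoxic females, and at 60.7 to 84.6 CPM in hypoxic males and 48.2 to 51.9 CPM in normoxic males. The part of either cell type, or of atrial muscle, in the Gja5 values was not tested.

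Gja3 (ENSMUSG00000048582) encodes a connexin best known from the lens of the eye. In the ventricle it was nevertheless measured at 129 to 299 estimated counts per library, and at a median of 3.19 TPM it stood above Gja5. Its level was 13.6, 8.43 and 8.76 CPM in hypoxic males and 16.5, 16.3 and 19.2 CPM in normoxic males. In hypoxic females it was 12.01, 7.83 and 9.15 CPM, against 17.3, 17.4 and 7.95 CPM in normoxic females. All 3 hypoxic male libraries were below the normoxic male ones, which 19.8% of all genes tested did. In females the groups overlapped because of normoxic female library 3, which lay with the hypoxic libraries. The averaged log2 fold change was -0.66 ± 0.20 (SE, adjusted p = 0.0331), with a 95% interval of -1.11 to -0.21. Within one sex it was -0.76 ± 0.29 in males (adjusted p = 0.0945) and -0.56 ± 0.29 in females (adjusted p = 0.259).

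That call rested on most of the libraries. It was kept in 3 of the 12 fits that left out 1 library, those without hypoxic male 1, hypoxic female 1 or normoxic female 3, and lost in the other 9, with adjusted p-values from 0.0526 to 0.0822. Without hypoxic male libraries 2 and 3 together the value was -0.45 (adjusted p = 0.280). On log2(TPM + 0.1) it was -0.32 (adjusted p = 0.245), or -0.60 relative to the median of all genes on that scale. The pattern over the libraries closest to that of Gja3 was the one of the tetraspanin gene Tspan3 (Pearson r = 0.97), given as a description over 12 libraries.

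Hcn2 (ENSMUSG00000020331) encodes a pacemaker channel subunit that is found in ventricular muscle as well as in the conduction system. Its level was 22.03, 17.5 and 13.04 CPM in hypoxic males and 22.4, 25.1 and 18.2 CPM in normoxic males. Hypoxic females had 22.4, 21.7 and 18.5 CPM, against 19.2, 17.6 and 12.2 CPM in normoxic females. The means were lower in hypoxic males and higher in hypoxic females than in the normoxic mice of the same sex, and the libraries overlapped in both. The log2 fold change was -0.33 ± 0.21 in males (SE, adjusted p = 0.305), 0.35 ± 0.21 in females (adjusted p = 0.325) and 0.01 ± 0.15 averaged over them (adjusted p = 0.956). The female effect minus the male effect was 0.68 ± 0.30 (unadjusted p = 0.0418, adjusted p = 0.730), which did not pass. On log2(TPM + 0.1) the male value was 0.0658, or -0.32 relative to the median of all genes on that scale.

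Hcn4 (ENSMUSG00000032338) encodes the principal pacemaker subunit of the sinus node. It had the lowest level of the 7 per length, with a median of 0.782 TPM, and 52 to 180 estimated counts per library. In CPM it was 7.54, 8.57 and 8.41 in hypoxic males and 5.34, 9.78 and 7.38 in normoxic males. In hypoxic females it was 8.40, 7.01 and 4.37 CPM, against 7.66, 5.43 and 3.20 CPM in normoxic females. The groups overlapped in both sexes and the log2 fold change averaged 0.20 ± 0.23 (SE, adjusted p = 0.540), with a 95% interval of -0.30 to 0.70. Hcn4 made up 10.6% to 24.4% of the summed TPM of Hcn2 and Hcn4. Of the 8 sinus node markers, Isl1 was at 0 in all 12 libraries. The sum of the 8 was 84.1 to 102 CPM in hypoxic males, 80.6 to 107 CPM in normoxic males, 103 to 121 CPM in hypoxic females and 82.0 to 129 CPM in normoxic females.

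**Figure D3:**
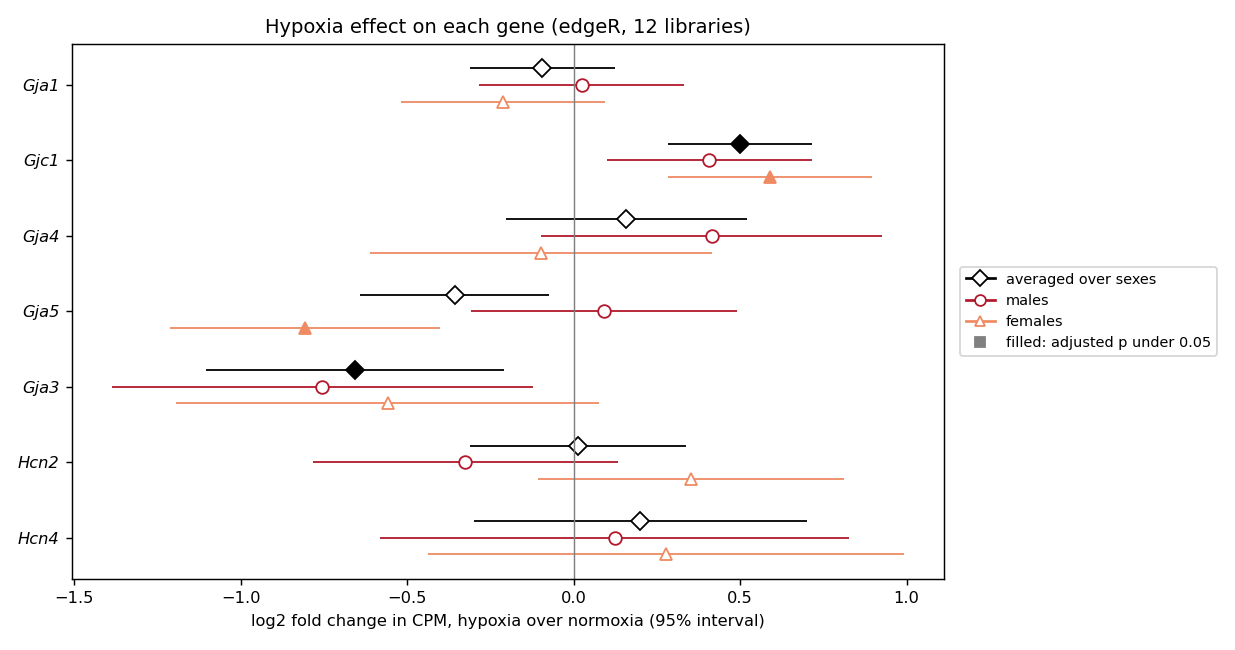
Log2 fold change in CPM of hypoxia over normoxia for each gene, averaged over the sexes, in males and in females, with 95% intervals from edgeR on 12 libraries. Filled symbols have an adjusted p under 0.05: Gjc1 at 0.50 and Gja3 at -0.66 in the averaged contrast, and Gjc1 at 0.59 and Gja5 at -0.81 in females.

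Set side by side per length, the genes ran from Gja1 at a median of 44.8 TPM through Gjc1 at 9.78, Gja4 at 4.68, Hcn2 at 4.27, Gja3 at 3.19 and Gja5 at 1.16 to Hcn4 at 0.782 TPM. Gjc1 was below Gja1 in all 12 libraries, and Gja4 was below Gjc1 in all 12. Neighbours further down were less separate. Hcn2 was below Gja4 in 7 libraries of 12, and whether these 2 differ was not tested. Gja3 was below Hcn2 in 9. Gja5 was below Gja3 in 11 libraries, and so was Hcn4 below Gja5. The 5 connexins held 98.5% to 99.5% of the summed connexin TPM in each library.

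**Figure D4:**
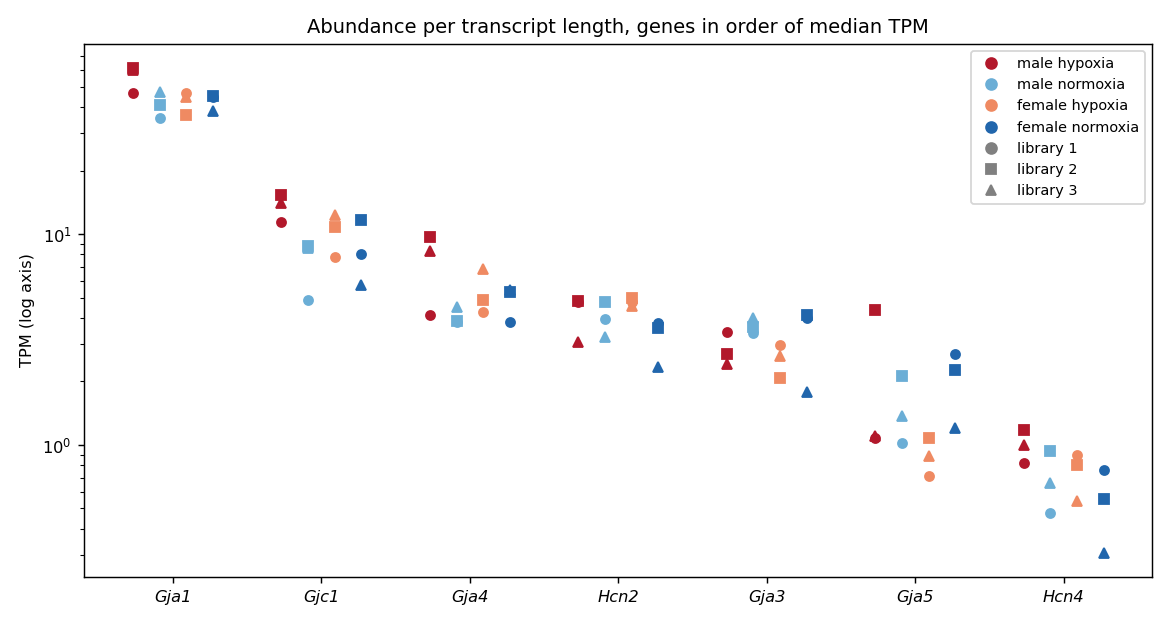
Level per transcript length in TPM on a log axis, with 1 point per library and the genes in order of their median over 12 libraries. Gja1 lies between 35.5 and 61.1 TPM and stands apart from Gjc1 in every library, whereas the ranges of Gja4 and Hcn2 overlap.

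Gjc1 took 16.5% ± 0.410 of the summed connexin TPM in hypoxic males and 12.5% ± 2.41 in normoxic males, and 16.6% ± 3.67 in hypoxic females against 13.4% ± 3.12 in normoxic females (SD, n = 3 each). The shares of Gja3 were 3.604% ± 1.32 in hypoxic males and 6.35% ± 0.537 in normoxic males, and 4.12% ± 0.553 in hypoxic females against 5.21% ± 1.62 in normoxic females. These shares carry the length estimates described above.

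The other channel genes of these families were mostly near the limit of detection. Of 18 further connexin and pannexin genes, 15 had a count in some library and 4 were tested. Gja10, Gjb6 and Panx3 had 0 counts in all 12 libraries, which allows a level of up to 0.143 to 0.198 CPM per library, taking 3 counts as the limit for counting error. Gja6, Gjb1, Gjb2, Gjb5, Gjd2, Gjd3, Gjd4 and Gje1 stayed at or below 0.215 TPM in every library. Gjc3 reached 0.188 TPM and did not pass (adjusted p = 0.535 by edgeR).

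Panx1 encodes a pannexin, a channel protein that releases ATP from cells and forms no gap junctions in most tissues. It was the only one of the 4 tested that was called. Its level was 3.51, 4.71 and 6.01 CPM in hypoxic males and 1.70, 1.68 and 1.04 CPM in normoxic males. Hypoxic females had 1.83, 4.599 and 4.84 CPM, against 2.25, 2.05 and 1.36 CPM in normoxic females. Hypoxic males were above normoxic males without overlap, while hypoxic female library 1 lay within the normoxic female range. The averaged log2 fold change was 1.34 ± 0.27 (SE, adjusted p = 0.0049). With transcript lengths as an offset it was 1.67 (adjusted p = 0.0673), and without hypoxic male libraries 2 and 3 it was 1.12 (adjusted p = 0.0652). Panx2 had a log2 fold change of -0.36 ± 0.38 (adjusted p = 0.506).

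Among 16 other genes of pacemaker and conduction currents, 12 were tested and 1 was higher and 0 lower in the averaged contrast, where 15.0% of all genes tested were higher and 12.9% lower. The median log2 fold change of the 12 was 0.01, against -0.01 over all genes tested. The gene that rose was Cacna1g, a T-type calcium channel of pacemaking cells. It averaged 24.1 ± 1.84 CPM in hypoxic males and 16.0 ± 1.22 CPM in normoxic males, and 21.0 ± 1.02 CPM in hypoxic females against 12.7 ± 4.59 CPM in normoxic females (SD, n = 3 each), a log2 fold change of 0.66 ± 0.15 (SE, adjusted p = 0.0080). With transcript lengths as an offset its value was 0.37 and the call was lost (adjusted p = 0.0863). Without hypoxic male libraries 2 and 3 the call was lost as well, though the value was 0.67. Kcnj3 and Kcnj5, whose products form the potassium channel opened by acetylcholine, had -0.61 ± 0.23 (adjusted p = 0.0663) and -0.36 ± 0.14 (adjusted p = 0.0829) and were not called. Pex5l, an auxiliary subunit of HCN channels in the mouse brain, had 0.65 ± 0.30 (adjusted p = 0.127). Hcn3 had 0 to 5 estimated counts and was not tested.

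The intercalated disc, where gap junctions sit, was represented by 19 adhesion and scaffold genes, all tested. In the averaged contrast 1 was higher and 3 were lower, 4 of 19 in all against 27.9% of all genes tested, and the median log2 fold change was -0.09. Tmem65, a disc membrane protein known in mice to bind the Gja1 protein, fell, with a log2 fold change of -0.45 ± 0.08 (SE, adjusted p = 0.0032). Cxadr, an adhesion receptor of the disc, fell by 0.32 (SE 0.08, adjusted p = 0.0115), and Lmo7, a disc scaffold, fell by 0.41 (SE 0.12, adjusted p = 0.0281). Xirp2, an actin-binding repeat protein, rose by 0.73 ± 0.24 (adjusted p = 0.0409). The calls of Lmo7 and Xirp2 were each lost in 8 of the 12 fits that left out 1 library, with adjusted p-values up to 0.0728 for Lmo7 and 0.0932 for Xirp2. Without hypoxic male library 3 the value of Xirp2 was 0.48, and limma voom (adjusted p = 0.0572) and the length offset (adjusted p = 0.0538) did not call it. On log2(TPM + 0.1), where the median of all genes was 0.29, the 3 that fell were not called: Tmem65 stood at -0.14 (adjusted p = 0.286), Cxadr at -0.0179 (adjusted p = 0.909) and Lmo7 at -0.16 (adjusted p = 0.330). Without hypoxic male libraries 2 and 3 together only Tmem65 of these 4 was called.

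Of 12 genes that deliver, remove or phosphorylate connexins, 3 were higher and 1 was lower, 4 of 12 in all against 27.9% of all genes tested, with a median log2 fold change of 0.05. Mapre1, the microtubule tip protein that guides connexin delivery, rose by 0.47 ± 0.07 (SE, adjusted p = 0.0011) and was called in each sex. Its level was 80.9 ± 4.97 CPM in hypoxic males and 57.7 ± 5.95 CPM in normoxic males, and 80.5 ± 6.06 CPM in hypoxic females against 58.8 ± 2.77 CPM in normoxic females (SD, n = 3 each). Ywhaz, a phosphoprotein-binding adaptor, rose by 0.41 ± 0.09 (adjusted p = 0.0061), and Csnk1d, a kinase that acts on connexins, by 0.26 ± 0.08 (adjusted p = 0.0322). Prkca, protein kinase C alpha, fell by 0.47 (SE 0.13, adjusted p = 0.0183). The call of Mapre1 held under every alternative run. That of Csnk1d was lost in 8 of the 12 fits that left out 1 library, with adjusted p-values up to 0.0776, and with the length offset its value was 0.16 (adjusted p = 0.624). Prkca lost its call without normoxic male 1 (adjusted p = 0.0503), and on log2(TPM + 0.1) it stood at -0.25 (adjusted p = 0.159), a scale on which Csnk1d was at 0.42 (adjusted p = 0.145). Without hypoxic male libraries 2 and 3 together Ywhaz (at 0.37), Csnk1d (at 0.23) and Prkca (at -0.56) were not called.

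Transcription factors of the conduction system and the working muscle numbered 17, of which 16 were tested, 3 were higher and 1 was lower, 4 of 16 in all against 27.9% of all genes tested, with a median log2 fold change of 0.15. Nfatc1, a factor of endocardium and valves, rose by 0.60 ± 0.14 (SE, adjusted p = 0.0093). Tbx3, known for repressing connexin genes in the nodes, rose by 0.64 ± 0.19 (adjusted p = 0.0299), and Tbx20 by 0.26 ± 0.08 (adjusted p = 0.0317). Hopx, a homeodomain protein without DNA binding, fell by 0.83 (SE 0.20, adjusted p = 0.0116). The call of Tbx3 was lost in 8 of the 12 fits that left out 1 library (adjusted p-values up to 0.0797) and that of Tbx20 in 6 of the 12 (up to 0.0834). With the length offset neither was called, at an adjusted p of 0.106 for Tbx3 and 0.0577 for Tbx20. On log2(TPM + 0.1) Hopx was at -0.52 (adjusted p = 0.0537). None of the 4 was called without hypoxic male libraries 2 and 3 together, where adjusted p-values ran from 0.0855 for Nfatc1 to 0.321 for Tbx20.

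**Figure D5:**
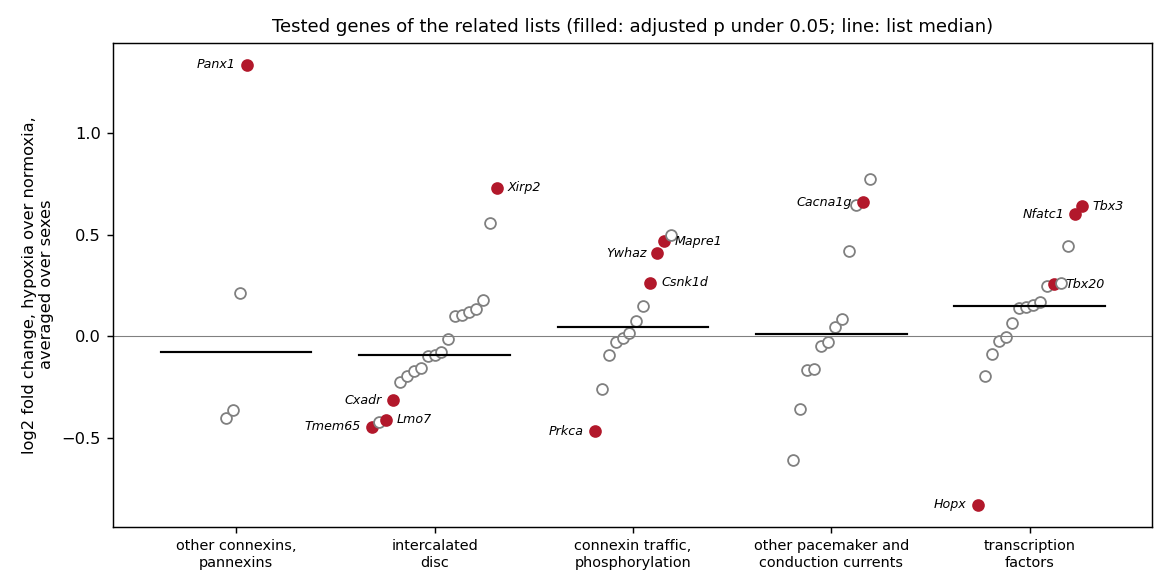
Averaged log2 fold change of hypoxia over normoxia for each tested gene of the 5 related lists, with 1 point per gene, filled where the adjusted p was under 0.05, and a line at the list's median. The medians lie between -0.09 and 0.15.

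The 2 genes most alike in pattern to each of the others, by Pearson r of log2 CPM over the 12 libraries, were Wnt9a (0.86) and Nudt21 (0.85) for Gja1, Ccn3 (0.86) and Atp2a3 (0.85) for Gja4, and Fads6 (0.91) and Ppp1cb (0.87) for Gja5. For Hcn2 they were Pla2g5 (0.87) and Zfp619 (0.87), and for Hcn4 they were Rbbp5 (0.94) and Fchsd2 (0.87). The highest of 10924 correlations is large by selection, and these values are descriptions over libraries that share group and depth.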

How the data were processed

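Messenger RNA of 12 mouse ventricle samples was sequenced with a strand-keeping kit, per the labels' protocols. Per the submitters' processing notes, FastQC and Salmon were run and GRCm39 was the build; their versions, the annotation and the strand setting are not given in the sources used here. The deposited table holds, per the file headers, estimated counts not scaled from abundance, TPM, and average effective transcript lengths (other); 0 of its columns could not be tied to a library. Symbols were matched for 99.3% of 39210 genes through an annotation of another build, used for names, overlaps and transcript lengths only.

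Estimated counts were rounded and tested with edgeR 4.0.16 (R 4.3.3): filterByExpr left 13960 genes, TMM factors, 1 mean per group over 12 libraries, the quasi-likelihood F test, two-sided, with Benjamini-Hochberg adjustment over all genes and a threshold of 0.05. CPM and shares were computed from the deposited values. Alternatives were DESeq2 1.42.0, limma 3.58.1 voom, limma on log2(TPM + 0.1) and log2(TPM + 1), lengths as an offset, RLE and upper quartile factors, no filter, a stricter one (1 CPM in 6 libraries), removal of mitochondrial and haemoglobin genes, a replicate block, only the compared libraries, and each library left out. Hypoxic male libraries 2 and 3 were also left out together because earlier results showed high atrial and fat markers in them. Hypoxic female library 3 was kept there, although its atrial marker sum of 1154 CPM was above the 1019 CPM of hypoxic male 3. Its fat marker sum was 1022 CPM, against 1088 CPM in hypoxic male 3. The named genes were all 7, the up to 4 genes of each list with the smallest p in the averaged contrast, other connexins and HCN genes by TPM range, and the 2 closest patterns per gene; library values and list counts beyond these are descriptions. A few genes named by this rule are left out of the text. The genes, lists and alternatives were chosen with earlier results of these data known.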

Additional observations from a re-analysis of the deposited data

How the results depend on the processing

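Of the 7 genes, the number called in the averaged contrast was 2. It was 1 with transcript lengths as an offset, 1 on log2(TPM + 0.1), 1 on log2(TPM + 1) and 0 without hypoxic male libraries 2 and 3, and 1 to 2 with each library left out in turn. In males, with 0 called, it was 1 on either TPM scale (Gjc1), 1 with only the compared libraries (Gja3) and 0 to 1 with 1 library left out. In females, with 2 called, it was 0 with the length offset, 0 on either TPM scale, 0 with only the compared libraries, 0 without hypoxic male libraries 2 and 3, 1 without a filter and 0 to 2 with 1 library left out. For the interaction and for females against males it stayed at 0 under every alternative run. The cause of these shifts was not tested. Without hypoxic male libraries 2 and 3 only 1 hypoxic male library was left, and the female values stayed at -0.81 for Gja5 and 0.59 for Gjc1.

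Deviations of same-numbered libraries from their group means had low correlations (18 pairs, r from -0.05 to 0.19), yet 9 of 12 libraries correlated best with their own number. Between the sexes these r were 0.19, 0.05 and 0.08 in hypoxia and 0.03, 0.09 and 0.05 in normoxia. Whether libraries of 1 number share a batch was not tested. With the replicate block the number called was 2 averaged, 1 in males (Gjc1) and 1 in females, where the adjusted p of Gja5 was 0.0501.

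Signs turned for values that passed no test. On log2(TPM + 0.1) and log2(TPM + 1), Gja1 averaged was 0.21 and 0.21, Hcn2 in males 0.0658 and 0.0559, Gja4 in females 0.12 and 0.10. Relative to the all-gene median of each scale, Gja1 was -0.07 and 0.02, Hcn2 -0.32 and -0.21, and Gja4 -0.07 and -0.02. The female minus male effect was -0.59 and -0.54 for Gjc1 and -0.0639 and -0.0622 for Hcn4. Relative to the median it was -0.41 and -0.42 for Gjc1 and 0.12 and 0.07 for Hcn4. Panx2 averaged was 0.0056 on log2(TPM + 1). With the length offset the interaction of Gjc1 was -0.40. Without hypoxic male libraries 2 and 3, Gja4 was -0.16 averaged and -0.22 in males, Gja1 -0.07 and Hcn2 0.0093 in males, and the interaction was -0.22 for Gja3 and 0.12 for Gja4. With upper quartile factors Hcn2 averaged was -0.0069. Leaving out 1 library gave ranges across 0 for Gja1 (-0.0566 to 0.15), Gja5 (-0.0347 to 0.22) and Hcn4 (-0.0708 to 0.36) in males, Gja4 in females (-0.25 to 0.0089), Hcn2 (-0.0842 to 0.10) and Gjc3 (-0.65 to 0.0462) averaged, and the interactions of Gja3 (-0.0913 to 0.45) and Hcn4 (-0.1146 to 0.49).

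Over all genes, calls ranged with the alternative from 1295 to 4679 averaged, from 66 to 3737 in males and from 40 to 2081 in females, against 3896, 2175 and 836. The TPM scale raised the median of all genes by 0.29 (averaged, pseudocount 0.1).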
